A study of Mus musculus with 3 samples.

Results

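The genes described here were 8 of the 32285 gene rows in single-cell count matrices of immune cells from inflamed peripheral nerve: S1pr1, S1pr5, Klf2, Cd69, Itgae, Itga1, Itga4 and Zfp683. They were chosen by name for known roles in lymphocyte exit from, and retention in, tissues, by a rule that uses no measured value. The cells were CD45+ leukocytes, sorted from the sciatic nerve once neuropathy had developed in NOD.AireGW/+ mice, which carry a partial loss-of-function Aire allele on the diabetes-prone NOD background. All 3 libraries belonged to this single group, with 1 mouse each in libraries 1 and 2 and 2 pooled mice in library 3. Nerves had been minced and digested with collagenase IV before sorting. No control genotype was analysed here, so the genes were compared between kinds of lymphocyte within the same nerves and no effect of disease was tested.

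Lymphocytes follow sphingosine-1-phosphate, a lipid that is plentiful in blood and lymph and scarce inside tissue, out of an organ through the receptor S1PR1 and, on some effector and natural killer (NK) cells, S1PR5. The transcription factor KLF2 switches on S1pr1, whereas CD69, a membrane protein made soon after activation, binds S1PR1 and removes it from the surface. Cells that settle in a tissue commonly carry the integrin chains CD103 (Itgae), which pairs with the beta7 chain and binds E-cadherin, and CD49a (Itga1), which pairs with the beta1 chain and binds collagen. Hobit, encoded by Zfp683, is a transcriptional repressor of exit genes in resident lymphocytes, while CD49d (Itga4) helps circulating cells to enter inflamed tissue by binding VCAM-1.

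In mm10, the build of the deposited matrices, GENCODE vM21 placed S1pr1 at chr3:115710433-115715072 on the minus strand and S1pr5 at chr9:21242912-21248443, also on the minus strand. Klf2 lay at chr8:72319033-72321656 and Zfp683 at chr4:134053838-134058996, both on the plus strand, and Cd69 at chr6:129267325-129275436 on the minus strand. The integrin chain genes were Itgae at chr11:73090583-73147446 (plus), Itga1 at chr13:114953096-115101964 (minus) and Itga4 at chr2:79255426-79333123 (plus). Promoters are shown for Klf2 and for a pair of integrin chains, Itga4 and Itga1. Itga4 was highest in the CD4 gate, whereas Itga1 was highest on average in the gamma delta gate and low in the CD4 gate. The sequences are RefSeq promoters (GRCm38.p6) up to the first annotated transcribed base, 5′ to 3′ on the gene's strand, and capitals mark the CACCC box, a motif bound by KLF family proteins, read on either strand as CACCC or GGGTG. The windows are chr8:72318812-72319032 for Klf2, chr2:79255176-79255425 for Itga4 and chr13:115101965-115102214 for Itga1.
Klf2: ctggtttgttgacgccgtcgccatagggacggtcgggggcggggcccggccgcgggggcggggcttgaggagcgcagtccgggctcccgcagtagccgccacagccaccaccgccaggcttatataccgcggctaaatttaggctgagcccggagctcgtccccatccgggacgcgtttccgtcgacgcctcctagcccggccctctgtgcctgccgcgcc
Itga4: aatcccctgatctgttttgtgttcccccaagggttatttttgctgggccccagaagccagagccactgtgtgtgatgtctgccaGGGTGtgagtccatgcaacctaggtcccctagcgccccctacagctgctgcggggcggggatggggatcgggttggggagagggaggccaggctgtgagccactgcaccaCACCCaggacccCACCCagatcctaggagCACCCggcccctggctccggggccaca
Itga1: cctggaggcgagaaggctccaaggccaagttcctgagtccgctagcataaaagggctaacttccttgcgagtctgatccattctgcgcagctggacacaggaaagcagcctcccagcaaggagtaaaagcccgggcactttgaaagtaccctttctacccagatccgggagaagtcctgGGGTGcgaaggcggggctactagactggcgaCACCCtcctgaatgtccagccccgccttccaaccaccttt
The Itga4 window held 4 boxes, the Itga1 window 2 and the printed Klf2 window, of 221 bases, 0. Over the full 250 bases of the table Klf2 held 1 box and S1pr5 2. Of 32851 RefSeq promoters searched over 250 bases, 52% held at least 1 box, 21.1% at least 2 and 2.14% at least 4. These matches describe letters only. Of the 8 genes, S1pr5, Klf2, Itga1 and Itga4 were in the promoter table.

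Cells were assigned to 7 gates by marker UMIs, where each UMI, a random tag added at capture, stands for 1 transcript molecule. T cells needed at least 2 UMIs of Cd3d, Cd3e and Cd3g together, no B cell marker and at most 2 UMIs of macrophage genes. Among them the Foxp3 gate (Foxp3 UMI, no Cd8a or Cd8b1), the gamma delta gate (at least 2 Trdc UMIs, no Cd4 or Cd8b1), the Ly49 T gate (at least 2 UMIs of Klra genes, which encode Ly49 receptors), the CD4 gate and the CD8 gate were filled in that order. NK cells had an Ncr1 UMI and no Cd3 UMI, which also admits other innate lymphoid cells that carry Ncr1, and B cells had Cd79a with a further B cell marker. Klra genes are near-identical and differ between NOD and the reference strain, so their counts, and with them the size of the Ly49 T gate, are uncertain. In libraries 1, 2 and 3 the CD4 gate held 583, 792 and 178 cells, the CD8 gate 868, 907 and 237, and the Foxp3 gate 364, 502 and 107. The rarer gates held 255, 225 and 80 Ly49 T cells, 64, 144 and 18 gamma delta T cells, 53, 77 and 14 NK cells, and 224, 320 and 65 B cells. Library 3 was the shallowest, with a median of 1726 UMIs per cell against 3985.5 and 4659 in libraries 1 and 2, and it limits the precision of every mean below. Levels below are CPM, UMI counts scaled to a common library total with TMM normalization. Marker genes that did not define the gates were highest, with no overlap, in their own gate for Foxp3 (Il2ra, Ctla4, Ikzf2), NK (Klrb1c, Eomes, Tyrobp, Gzma) and B cells (Pax5, Ighm, Ebf1). The helper markers Cd40lg, Icos and Cd5 summed to 1110 to 1800 CPM in the CD4 gate against 458 to 737 CPM in the CD8 gate, and the cytotoxic markers Nkg7, Ccl5 and Gzmk to 16200 to 38700 CPM in the CD8 gate against 2210 to 3510 CPM in the CD4 gate. The Ly49 T markers Ikzf2, Fcer1g and Klrb1c summed to 670 to 1380 CPM in the Ly49 T gate but 1460 to 2110 CPM in NK cells, and the gamma delta chain genes ranged from 229 to 924 CPM in the gamma delta gate and from 256 to 383 CPM in the Ly49 T gate, so the markers do not set these gates apart and they are called by their rule. The alpha beta chain genes Trac and Trbc2 summed to 209 to 353 CPM in the gamma delta gate. Their sums were 299 to 529 CPM in the Ly49 T gate, 538 to 956 CPM in the CD8 gate and 68.7 to 220 CPM in NK cells. Genes of macrophages summed to 120 to 954 CPM over all gates, those of Schwann cells to at most 74.1 CPM and those of endothelium to at most 94.9 CPM. Between 7 and 35 cell barcodes were shared by a pair of libraries, at most 0.913% of either one.

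UMIs were summed per library and gate, and levels are given as mean ± SD over n = 3 libraries. S1pr1, the main exit receptor, was highest in the CD4 gate, at 269, 161 and 196 CPM in libraries 1, 2 and 3 (208 ± 54.9). It was 250, 94.2 and 154 CPM in B cells (166 ± 78.4) and 114, 95.7 and 131 CPM in the Foxp3 gate (114 ± 17.7). The CD8 gate followed with 99.9, 60.6 and 82.3 CPM (81 ± 19.7). CD4 exceeded B, and Foxp3 exceeded CD8, in 3 of 3 libraries and beyond the spread of the paired difference, whereas B and Foxp3 did not separate. A wide drop came next, since Ly49 T cells had 23.9, 15.7 and 6.79 CPM (15.4 ± 8.54), gamma delta T cells 16.4, 8.82 and 19.9 CPM and NK cells 29.5, 3.11 and 0 CPM. Every Ly49 T library lay below every CD8 library, and the last 3 gates could not be ordered among themselves. With each cell thinned to 1000 UMIs, 18.5% ± 2.70 of CD4 cells had an S1pr1 UMI (31.3% unthinned), against 0.762% of gamma delta T cells, 1.48% of NK cells and 0.722% of 1800 C1q-positive macrophages of library 2, a non-lymphoid reference thinned to the same depth. Unthinned, the shares were 10.9%, 3.47% and 11.1% in gamma delta T cells and 7.55%, 1.3% and 0% in NK cells of libraries 1, 2 and 3, against 4.07% of the macrophages. The thinned shares rest on at most 2 cells a library, so S1pr1 in these gates could not be told from background at this depth.

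S1pr5, the second exit receptor, was rare in all gates and had 25, 10 and 3 UMIs in all cells of the 3 libraries. NK cells had 4, 4 and 0 S1pr5 UMIs (8.51 ± 7.38 CPM) and CD8 cells 8, 4 and 3 (2.75 ± 2.50 CPM). Foxp3, gamma delta and B cells had 0 UMIs in every library. After thinning, 1.17% ± 1.12 of NK cells had an S1pr5 UMI (3.62% unthinned), against 0 of 1800 macrophages, which allows up to 0.167%. No neighbouring gates differed beyond their spread, and S1pr5 did not pass the filter on low counts, so 7 of the 8 genes entered the tests between gates.

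Klf2, the activator of S1pr1, was present in all 7 gates. B cells had the highest level, at 744, 434 and 412 CPM (530 ± 186), above CD4 in 3 of 3 libraries. The CD4 gate had 528, 341 and 329 CPM (399 ± 112), the CD8 gate 360, 243 and 371 CPM (325 ± 70.5) and the Foxp3 gate 327, 240 and 329 CPM (299 ± 50.6). NK cells, which had almost no S1pr1, kept 350, 258 and 280 Klf2 CPM (296 ± 48.2). Only the Ly49 T gate, at 179, 131 and 156 CPM, and the gamma delta gate, at 139, 98.1 and 79.8 CPM, lay entirely below NK cells, and the former exceeded the latter in 3 of 3 libraries. CD4 and CD8, and likewise Foxp3 and NK, did not differ beyond their spread. A Klf2 UMI was found in 31.2% ± 8.08 of thinned B cells (53.2% unthinned) and in 17.2% of the macrophages, which also express this gene.

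**Figure D1:**
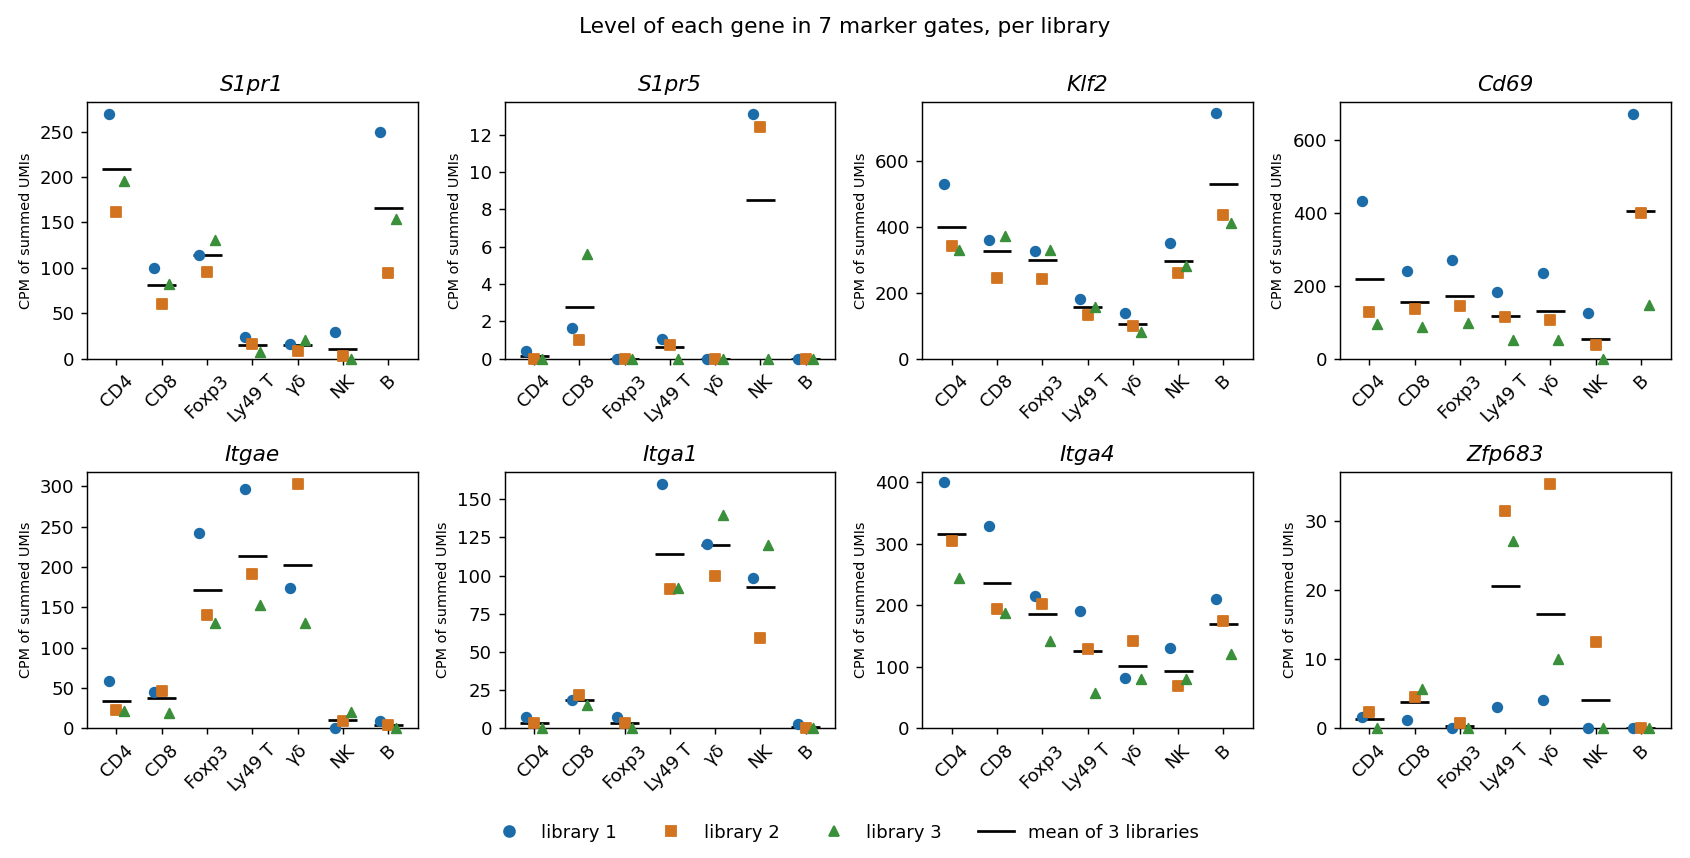
Level of each of the 8 genes in CPM of summed UMIs (vertical axis, linear, a separate scale per panel) in 7 gates (horizontal axis); symbols are libraries 1, 2 and 3 and black bars their mean. Mean S1pr1 was 208 CPM in CD4 and 15.4 CPM in Ly49 T cells, while mean Itgae and Itga1 were at 214 and 114 CPM in Ly49 T cells and near 0 in B cells.

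Cd69, the antagonist of S1PR1, was highest in B cells, at 671, 400 and 146 CPM (405 ± 263). The CD4 gate had 433, 127 and 95 CPM, the Foxp3 gate 270, 145 and 97.3 CPM and the CD8 gate 241, 137 and 86.1 CPM. Gamma delta T cells had 236, 107 and 49.8 CPM, Ly49 T cells 183, 115 and 50.9 CPM and NK cells 124, 37.3 and 0 CPM. Only the steps from B to CD4, from Foxp3 to CD8 and from CD8 to gamma delta T cells exceeded the spread between libraries. Library 1 was highest and library 3 lowest for Cd69 in 7 of 7 gates. Among 10 immediate early and heat shock genes, which can rise when tissue is digested, Fos was also lowest in library 3 in the CD4 gate (343, 460 and 70.6 CPM), as was Jun (141, 61.5 and 19 CPM). The summed level of the 10 genes, mostly Junb and Jund (means of 3180 and 1060 CPM in the CD4 gate), was 2810 to 4310 CPM in library 1, 4190 to 5640 CPM in library 2 and 3420 to 5280 CPM in library 3. Unlike Cd69, the sum was lowest in library 1 in every gate but NK, for example at 4310, 5470 and 5280 CPM in the CD4 gate of libraries 1, 2 and 3. In NK cells it was 3710, 5420 and 3420 CPM. The part of the 10 genes in the Cd69 levels was not tested. The matrix of library 1 came from Cell Ranger 5.0.1 and the others from 6.1.2, so version and mouse cannot be told apart. A Cd69 UMI was found in 26.3% ± 18.1 of thinned B cells (52.1% unthinned) and in 2.22% of the macrophages.

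The retention integrins Itgae and Itga1 were both high in Ly49 T and gamma delta T cells and parted in Foxp3 and NK cells. Itgae was high in 3 gates, with 297, 191 and 153 CPM in Ly49 T cells (214 ± 74.8), 174, 303 and 130 CPM in gamma delta T cells (202 ± 90.1) and 242, 141 and 131 CPM in Foxp3 cells (171 ± 61.3). Neither Ly49 T from gamma delta T cells nor gamma delta T from Foxp3 cells differed beyond the spread, and Ly49 T was above Foxp3 in 3 of 3 libraries. CD8 cells had 45.4, 46.8 and 18.7 CPM and CD4 cells 58.5, 22.9 and 21.7 CPM, all below every Foxp3 library. Itgae was scarce in NK cells (0, 9.32 and 20 CPM) and B cells (8.81, 4.07 and 0 CPM). An Itgae UMI was found in 17.1% ± 4.81 of thinned Foxp3 cells (33.3% unthinned) and in 0.63% of B cells. Itga1 was high in gamma delta T cells (121, 100 and 140 CPM, 120 ± 19.6), Ly49 T cells (160, 91.2 and 91.6 CPM, 114 ± 39.4) and NK cells (98.2, 59 and 120 CPM, 92.4 ± 30.9). Neither gamma delta T from Ly49 T cells nor Ly49 T from NK cells differed in it beyond the spread. CD8 cells followed at 18.7, 22.1 and 15 CPM, below all 3 of those gates and above CD4 cells (7.21, 3.76 and 0 CPM) with no overlap. Foxp3 cells, although high in Itgae, had only 7.3, 3.59 and 0 Itga1 CPM. An Itga1 UMI was seen in 13.2% ± 8.16 of thinned Ly49 T cells (39.5% unthinned) and in 0.159% of B cells.

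Itga4, the chain of VCAM-1 binding, was highest in the CD4 gate at 400, 304 and 244 CPM (316 ± 78.5), followed by CD8 cells (329, 194 and 187 CPM), Foxp3 cells (215, 202 and 142 CPM) and B cells (211, 175 and 121 CPM), with CD8 and Foxp3 not apart beyond their spread. Ly49 T cells had 190, 129 and 57.7 CPM, gamma delta T cells 82, 142 and 79.8 CPM and NK cells 131, 68.4 and 80 CPM, an order that did not hold beyond the spread among these 3. An Itga4 UMI was found in 29.2% ± 5.74 of thinned CD4 cells (52.2% unthinned) and in 6.06% of the macrophages.

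Zfp683, the residency factor, was low throughout and highest on average in the Ly49 T and gamma delta gates. Ly49 T cells had 6, 42 and 8 UMIs (3.11, 31.4 and 27.1 CPM) and gamma delta T cells 2, 32 and 1 (4.1, 35.3 and 9.97 CPM). CD8 cells had 6, 18 and 3 UMIs (1.22, 4.53 and 5.61 CPM), CD4 cells 4, 7 and 0 and NK cells 0, 4 and 0. Foxp3 cells had 2 UMIs in all and B cells 0, where 3 UMIs over the B cell sums would be 1.14 CPM. Library 1 was lowest, ties at 0 included, in 6 of 7 gates and contributed 25 of all Zfp683 UMIs against 156 in library 2, which makes the mean of 20.6 ± 15.3 CPM in Ly49 T cells imprecise. A Zfp683 UMI was found in 2.05% ± 1.72 of thinned Ly49 T cells (7.46% unthinned) and in 0 of 1800 macrophages.

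The CD8 gate was compared with the CD4 gate to ask whether cytotoxic and helper T cells of the nerve differ in these genes. S1pr1 was lower in CD8 cells by a log2 difference of -1.38 ± 0.19 (SE, edgeR adjusted p = 9.06e-06), in 3 of 3 libraries with no overlap, and Itga1 was higher by 1.99 ± 0.35 (adjusted p = 3.00e-04). These were 2 of 7 genes tested, where 8.68% of 9021 genes were called. The differences of Klf2 (-0.32 ± 0.15, adjusted p = 0.214), Cd69 (-0.37 ± 0.19), Itga4 (-0.43 ± 0.19), Itgae (0.20 ± 0.29) and Zfp683 (0.76 ± 0.61) did not pass. Among 9 tested genes of exit and lymph node homing, 3 were lower in CD8 cells and none higher: Ccr7, the lymph node homing receptor (-1.49), Il7r, the IL-7 receptor (-1.12), and Tcf7, which encodes TCF-1 (-0.84). Of 16 residency genes, 5 were higher, among them the orphan nuclear receptor Nr4a2 (1.99), the chemokine Xcl1 (1.87) and the chemokine receptor Cxcr6 (1.28), and 3 were lower, led by the aryl hydrocarbon receptor gene Ahr (-1.17). The median over the residency list was -0.27 against 0.02 over all genes, although more of its called members were higher than lower. Macrophage genes summed to 260 to 522 CPM in CD8 and 524 to 738 CPM in CD4 cells, and their part in these differences was not tested. Without the library term S1pr1 lost its call (adjusted p = 0.0733), and without library 3 Klf2 gained one (-0.51, adjusted p = 0.0208).

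Foxp3 cells, which include regulatory T cells, were compared with CD4 cells lacking Foxp3. Itgae was higher by 2.30 ± 0.29 (edgeR adjusted p = 9.45e-06), with each Foxp3 library above each CD4 library. S1pr1 was lower by -0.90 ± 0.19 (adjusted p = 0.00455) and Itga4 by -0.75 ± 0.20 (adjusted p = 0.0241). Thus 3 of 7 genes were called, against 4.43% of all genes. Klf2 (-0.44 ± 0.15, adjusted p = 0.108), Cd69 (-0.25 ± 0.20) and Zfp683 (-2.07 ± 0.98, 2 against 11 UMIs) did not pass, and Itga1 did not separate the gates (0.00 ± 0.48). The partner chain of CD103, Itgb7, was also higher (0.69), as was the alpha v chain Itgav (0.94), while Itgb1 (-1.51) and Itgal (-0.50) were lower, which were 4 of 8 integrin chains. Of the exit list 4 of 9 were lower and none higher, with Tcf7 (-2.34) and Ccr7 (-1.58) at the front, and of 16 residency genes 4 were higher, such as Cd101 (1.57) and the TGF-beta receptor Tgfbr1 (1.14), and 2 lower. Itgae passed in all 10 alternative settings, whereas S1pr1 lost its call without library 1 (-0.67, adjusted p = 0.183), without the macrophage limit (adjusted p = 0.243) and without the library term (adjusted p = 0.804). Itga4 lost its call without library 1 (adjusted p = 0.205), without library 3 (adjusted p = 0.124) and under the same other settings (adjusted p = 0.167 and 0.918). Summed macrophage genes were at 595 to 745 CPM in Foxp3 cells and 524 to 738 CPM in CD4 cells, and their part in the result was not tested.

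NK cells were set against CD8 cells as the innate and adaptive cytotoxic lymphocytes of the nerve. NK cells had less S1pr1 (-2.46 ± 0.43, edgeR adjusted p = 2.64e-04), less Itgae (-2.85 ± 0.78, adjusted p = 0.0197), less Cd69 (-1.41 ± 0.29, adjusted p = 0.00145) and less Itga4 (-1.41 ± 0.27, adjusted p = 8.00e-04). Of the 7 genes, only Itga1 was called higher (2.03 ± 0.34, adjusted p = 1.82e-04). In NK cells of libraries 1, 2 and 3, S1pr1 rested on 9, 1 and 0 UMIs and Cd69 on 38, 12 and 0. The NK sum of library 3 came from 14 cells, where 3 UMIs would be 60 CPM, so its 0 values say little. In all 5 of 7 genes were called, against 9.47% of all genes, and Klf2 was not (-0.10 ± 0.17, adjusted p = 0.982), nor was Zfp683 (0.78 ± 0.92). NK cells therefore differed from CD8 cells in the receptor S1pr1 while the difference in its activator Klf2 did not pass, although these tests do not compare the genes with each other. Macrophage genes summed to 120 to 295 CPM in NK cells, against 260 to 522 CPM in CD8 cells. Itga2 (4.13), the chain CD49b that marks circulating NK cells, Itgb3 (2.71) and Itgb1 (1.13), the partner of CD49a, were higher, and Itga6 (-2.01) and Itgb2 (-0.91) were lower. Of the exit list 3 of 9 were lower, namely Il7r (-1.26), Klf3 (-0.94) and Klf6 (-0.86). Residency genes were split, with 3 of 16 higher, led by Xcl1 (2.27), and 3 lower, led by Prdm1 (-2.16), which encodes Blimp-1, and Cxcr6 (-2.05) among those with UMIs in both gates. The Itgae call, which rests on 4 UMIs in NK cells, was lost without library 1 (adjusted p = 0.121), without library 3 (adjusted p = 0.0628), without the macrophage limit (adjusted p = 0.0771) and without the library term (adjusted p = 0.0735). The last also ended the calls of Cd69 (adjusted p = 0.540) and Itga4 (adjusted p = 0.0701).

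Gamma delta T cells and Ly49 T cells were each compared with the same CD8 cells, so their differences are given side by side and not as independent results. S1pr1 was lower by -2.63 ± 0.35 in gamma delta T cells (edgeR adjusted p = 9.88e-06) and by -2.14 ± 0.25 in Ly49 T cells (adjusted p = 1.94e-06). Klf2 was lower by -1.51 ± 0.18 (adjusted p = 1.99e-06) and -1.05 ± 0.16 (adjusted p = 5.20e-05). Itga4 was lower by -1.14 ± 0.23 (adjusted p = 0.00182) and -0.86 ± 0.20 (adjusted p = 0.00703). Itgae, Itga1 and Zfp683 went the other way. Itgae was higher by 2.48 ± 0.29 and 2.45 ± 0.27 (adjusted p = 1.38e-06 and 6.27e-07), Itga1 by 2.53 ± 0.26 and 2.58 ± 0.23 (adjusted p = 2.72e-07 and 2.30e-08), and Zfp683 by 2.48 ± 0.52 and 2.38 ± 0.46 (adjusted p = 0.00342 and 0.00148). Cd69 alone of the 7 passed in neither comparison (-0.27 ± 0.22 and -0.40 ± 0.21). Zfp683 met the low-count filter only through Ly49 T, gamma delta and NK sums. No CD8 sum met it (1.22, 4.53 and 5.61 CPM in libraries 1, 2 and 3). Zfp683 was thus tested because it was high in these gates, so its calls here are description only. With Zfp683, 6 of 7 genes were called in each, against 6.43% of all genes for gamma delta T cells and 6.97% for Ly49 T cells. Of the exit list, 4 of 9 were lower and 0 higher in gamma delta T cells, led by Klf3 (-2.37) and Ccr7 (-2.08). In Ly49 T cells 4 were lower, led by Klf3 (-1.80), and 1 was higher. Residency genes beyond the 8 showed less: 2 of 16 were higher and 1 lower in gamma delta T cells, and 2 higher and 2 lower in Ly49 T cells, with Rgs2 (0.92 and 1.13) higher in both and Prdm1 (-1.01 and -0.93) lower in both. Of 8 integrin chains, 2 were higher and 1 lower in gamma delta T cells, and 2 higher and 2 lower in Ly49 T cells. The collagen-binding chain Itga2 was higher in both (2.76 and 2.48). Itga4 lost its call in gamma delta T cells without library 1 (-0.69, adjusted p = 0.228) and with stricter markers (adjusted p = 0.0718), and in Ly49 T cells without library 3 (adjusted p = 0.116) and without the macrophage limit (adjusted p = 0.0611), which also ended the Klf2 call there (-0.66, adjusted p = 0.0908). Without the library term the Zfp683 and Itga4 calls were lost in both (adjusted p from 0.137 to 0.423), and Klf2 in Ly49 T cells (adjusted p = 0.0574).

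**Figure D2:**
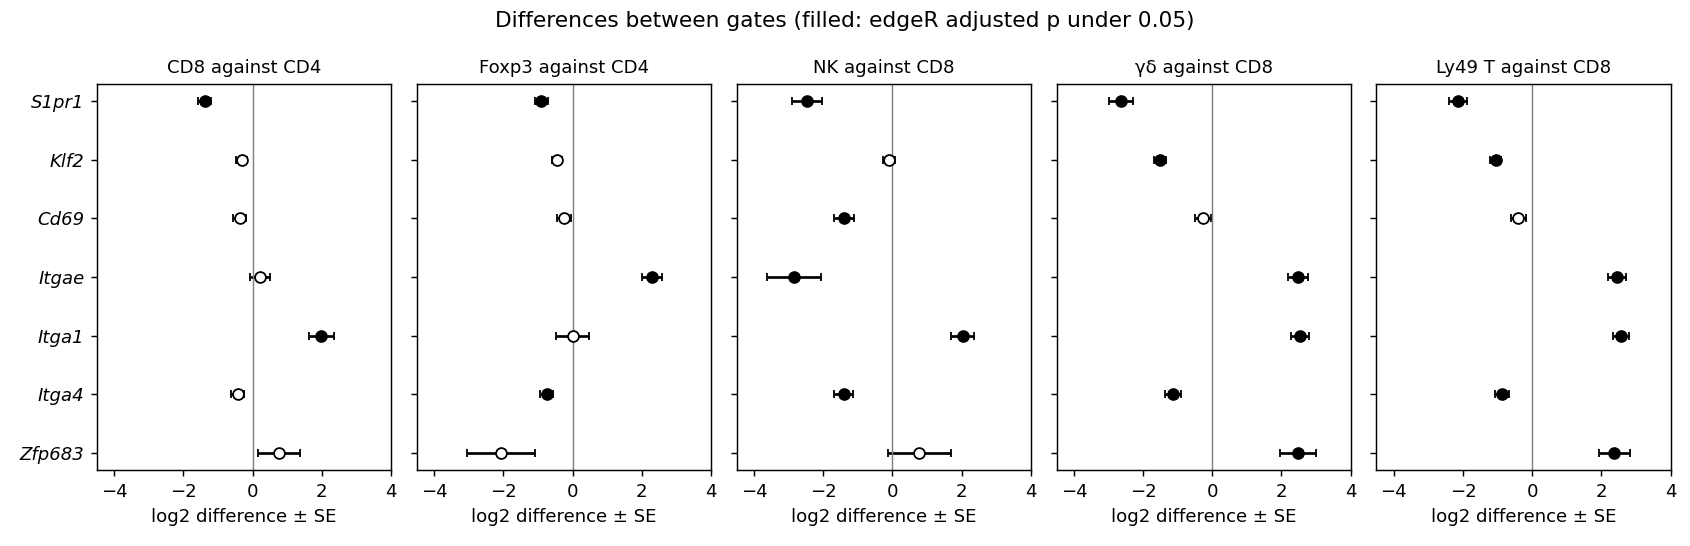
Log2 difference (horizontal axis, ± SE) of 7 genes in 5 comparisons between gates, from the edgeR fit over 21 sums; filled points have an adjusted p under 0.05. S1pr1 was lower in all 5 panels, and Itgae, Itga1 and Zfp683 were higher together in the gamma delta and Ly49 T panels. Zfp683 entered the tests only through sums of gates where it was high.

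B cells were compared with the mean of the CD4 and CD8 gates. Cd69 was higher by 1.22 ± 0.17 (edgeR adjusted p = 1.52e-06) and Klf2 by 0.58 ± 0.13 (adjusted p = 7.35e-04), whereas S1pr1 did not pass (0.31 ± 0.17, adjusted p = 0.179). Itgae was lower by -2.79 ± 0.47 (adjusted p = 3.13e-05) and Itga4 by -0.68 ± 0.19 (adjusted p = 0.00516). Itga1 (3, 0 and 0 UMIs in B cells) and Zfp683 (0 UMIs) also passed as lower (adjusted p = 0.0012 and 0.0134), but with so few UMIs no fold is given. In total 6 of 7 genes were called where 37% of all genes were, so a high share is the background here. Of 9 exit genes 2 were higher in B cells, among them Ccr7 (1.43), and 6 were lower, led by the T cell genes Lef1 (-6.76) and Il7r (-5.90). Of 10 digestion-related genes 4 were higher, among them Jun (1.56) and Fos (0.68), and Junb (-0.78) was lower; their part in the Cd69 result was not tested. Klf2 and Itga4 lost their calls without library 1 (adjusted p = 0.0566 and 0.0531), Itga1 without library 2 (adjusted p = 0.0707), and without the library term the calls of Klf2, Cd69, Zfp683 and Itga4 were lost (adjusted p from 0.101 to 0.167). With stricter markers S1pr1 passed as higher (0.52, adjusted p = 0.018).

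CXCR6, a chemokine receptor carried by many tissue-resident T cells, was used to divide the CD4 and CD8 gates by whether a cell thinned to 1000 UMIs had a Cxcr6 UMI. In libraries 1, 2 and 3 this gave 149, 115 and 10 CD4 cells with Cxcr6 against 347, 655 and 145 without, and 342, 224 and 28 CD8 cells against 435, 673 and 193. Cells without a UMI include cells in which Cxcr6 was missed, which can understate differences, and other biases of the split were not tested. In CD4 cells with Cxcr6, Klf2 was at 301, 77.6 and 0 CPM against 1090, 722 and 506 CPM in those without. S1pr1 was at 178, 48.5 and 0 CPM against 505, 327 and 253 CPM. Every Cxcr6-positive library lay below every negative one for both genes, but library 3 had only 10 positive cells, in which 3 UMIs would be 204 CPM, so its 0 says little. The log2 differences were -2.20 ± 0.24 for Klf2 (edgeR adjusted p = 7.53e-17) and -1.87 ± 0.28 for S1pr1 (adjusted p = 2.66e-08). CD8 cells with Cxcr6 had 239, 174 and 114 Klf2 CPM against 667, 538 and 594 CPM, and 64.4, 56.3 and 76.2 S1pr1 CPM against 207, 131 and 119 CPM, again without overlap. The library 3 values of the positive CD8 cells rest on 3 Klf2 and 2 S1pr1 UMIs, where 3 UMIs are 114 CPM. There the differences were -1.69 ± 0.21 for Klf2 (adjusted p = 8.70e-13) and -1.50 ± 0.30 for S1pr1 (adjusted p = 7.97e-05). Of 5 genes tested 2 were called in each gate, against 2.22% of 3959 genes in CD4 cells and 2.68% in CD8 cells. Cytotoxic markers moved with Cxcr6 in CD4 cells, where Nkg7 (1.73), Ccl5 (1.56) and Gzmk (0.89) were higher, as was the gamma delta chain gene Trgv2 (2.11). In CD8 cells Nkg7 (0.64) and Trgv2 (0.99) were higher, and Jun (-1.28) was the 1 of 7 digestion-related genes called, as lower. The part of these genes in the Klf2 and S1pr1 differences was not tested.

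Of the 8 genes, Cd69, Itgae and Itga4 did not pass with Cxcr6 in either gate. Cd69 differed by -0.71 ± 0.25 in CD4 cells (edgeR adjusted p = 0.138) and -0.43 ± 0.22 in CD8 cells, Itgae by 1.10 ± 0.41 (adjusted p = 0.156) and 0.29 ± 0.33, and Itga4 by 0.00 ± 0.20 and 0.27 ± 0.19. Itga1, S1pr5 and Zfp683 were too sparse to test. Exit genes outside the 8 fell with S1pr1, 4 of 8 in each gate and none the other way: Ccr7 (-2.98 in CD4 and -2.17 in CD8 cells), Klf3 (-1.95 and -2.11), Tcf7 (-1.68 and -1.82) and Il7r (-1.10 and -1.22). Of 10 residency genes tested, Rgs1 (1.02) and Prdm1 (1.24) were higher in CD4 cells, and Xcl1 was lower in CD8 cells (-1.24), where the integrin chains Itgav (1.34) and Itgb2 (0.61) were higher. The Cxcr6 effect was not shown to differ between CD8 and CD4 cells for any of the 5 genes by edgeR's interaction test (0 called, 0 at an unadjusted p under 0.05, 0 by DESeq2), a test that called 0.0505% of all genes. Leaving out library 1 ended the S1pr1 call in CD8 cells (-1.13, adjusted p = 0.472), and dropping the library term ended all 4 calls (adjusted p from 0.111 to 1.00), while Klf2 passed without any single library. Itgae passed in CD4 cells with stricter markers (2.35, adjusted p = 0.00761) and Cd69 in CD8 cells without thinning (-0.79, adjusted p = 0.00438).

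**Figure D3:**
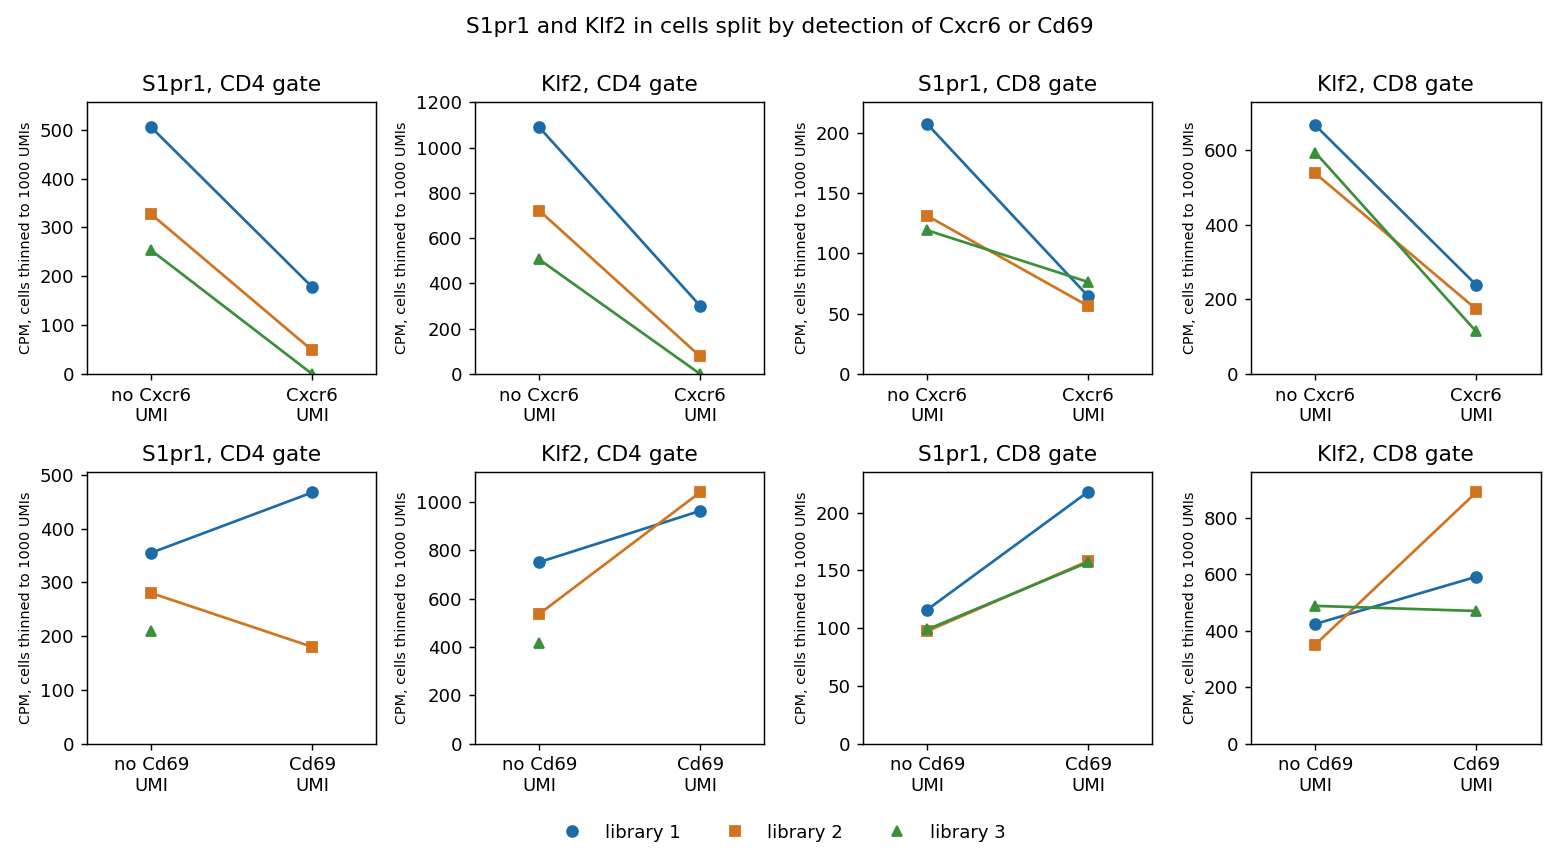
CPM of S1pr1 and Klf2 (vertical axis, linear from 0) in thinned CD4 and CD8 cells without and with a UMI of Cxcr6 (top row) or Cd69 (bottom row); lines join the sums of 1 library. All lines of the top row fall, from 1090 to 301 CPM for Klf2 in CD4 cells of library 1, and those of the bottom row do not fall together; library 3 had too few Cd69-positive CD4 cells for a sum.

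The same division by Cd69 gave a different picture. After thinning, 140, 83 and 9 CD4 cells and 181, 110 and 18 CD8 cells of libraries 1, 2 and 3 had a Cd69 UMI, and the 9 cells, being under 10, were left out. Klf2 was higher in Cd69-positive cells in all but 1 library, at 963 and 1040 CPM against 751 and 537 CPM in CD4 cells of libraries 1 and 2 and at 591, 890 and 470 CPM against 424, 351 and 488 CPM in CD8 cells, where library 3 was slightly lower. Its log2 difference was 0.71 ± 0.18 in CD4 cells (edgeR adjusted p = 0.02) and 0.73 ± 0.18 in CD8 cells (adjusted p = 0.0147). S1pr1 did not pass: the difference was 0.13 ± 0.23 in CD4 cells and 0.77 ± 0.28 in CD8 cells (adjusted p = 0.286), with 218, 158 and 157 CPM in positive against 116, 97.4 and 98.9 CPM in negative CD8 cells, higher in 3 of 3 libraries. Itgae (-0.29 ± 0.50 and 0.70 ± 0.36) and Itga4 (-0.08 ± 0.21 and 0.23 ± 0.19) did not pass. So 1 of 4 genes was called in each gate, against 0.57% of 4037 genes in CD4 and 0.768% in CD8 cells, and the interaction test of edgeR called none of the 4 (0 at an unadjusted p under 0.05, 0 by DESeq2; 0.124% of all genes). Cd69-positive cells also had more Fos (1.16 in CD4 and 1.38 in CD8 cells) and Jun (1.68 and 1.41), with 2 and 3 of 8 digestion-related genes higher and none lower, whose part in the Klf2 result was not tested. Ccr7 (1.14), Il7r (0.80), Xcl1 (1.53), Itgb7 (0.84) and Itgb1 (0.63) were higher in Cd69-positive CD8 cells by edgeR, whereas DESeq2 called 0 genes of the exit and residency lists and 1 integrin chain there, while no gene of the exit, residency and integrin lists passed edgeR's test in CD4 cells (3, 3 and 0 genes at an unadjusted p under 0.05, 0 by DESeq2).

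The Klf2 calls by Cd69 were fragile. In CD4 cells the call was lost without any single library (0.57 to 0.96, adjusted p from 0.0807 to 1.00), and the difference shrank to 0.12 without thinning (adjusted p = 0.911). In CD8 cells it was lost without library 2 (0.10, adjusted p = 0.997), with stricter markers and with other thinning (adjusted p from 0.069 to 0.313), and DESeq2, the removal of the low-count filter and the removal of the library term each ended both calls (adjusted p from 0.314 to 1.00).

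Within single cells S1pr1 and Klf2 were found together more often than the product of their shares gives. In thinned CD4 cells 67, 75 and 8 cells of libraries 1, 2 and 3 had both, where the product gave 32.6, 29.9 and 4.86, a ratio of 2.06, 2.5 and 1.64. In CD8 cells 47, 36 and 8 cells had both, where 18.4, 13.3 and 3.46 were given by the product, a ratio of 2.56, 2.7 and 2.31. Foxp3 cells gave 2.15, 2.27 and 2. All of these ratios were above 1. In the Foxp3 gate the exit genes and Itgae went the opposite way, since Klf2 and Itgae were found together in 7, 7 and 1 cells, where the product gave 18.1, 15.4 and 3, and S1pr1 and Itgae in 4 and 3 cells of libraries 1 and 2, where it gave 8.62 and 10.4. In libraries 1 and 2, Klf2 with Itgae gave 0.547 and 0.729 in CD4 cells and 0.714 and 1.12 in CD8 cells. S1pr1 with Itgae gave 0.386 and 0.98 in CD4 cells and 0.578 and 0.818 in CD8 cells. These ratios rest on few cells with both genes. With Klf2 they were 4 and 3 CD4 cells and 5 and 10 CD8 cells, and with S1pr1 2 and 3 in each gate. Most lay below 1, but no difference from Foxp3 cells is read. In CD4 and CD8 cells S1pr1 with Itga4 ran from 0.806 to 1.23 and Klf2 with Itga4 from 0.578 to 1.26. The lowest of these, in CD4 cells of library 3, was 4 cells where the product gave 6.92. Klf2 with Cd69 gave 1.1 and 1.58 in CD4 cells of libraries 1 and 2 and 1.26, 1.72 and 1.2 in CD8 cells. S1pr1 with Cd69 was at 0.993 and 0.637 in CD4 cells of libraries 1 and 2 and at 1.38 and 1.63 in CD8 cells. Library 3 had under 3 expected cells for this pair, with ratios of 2.65 in CD4 (4 cells) and 1.64 in CD8 cells (2 cells), so no order of the gates is read. These ratios are descriptions over cells that share a library and were not tested.

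**Figure D4:**
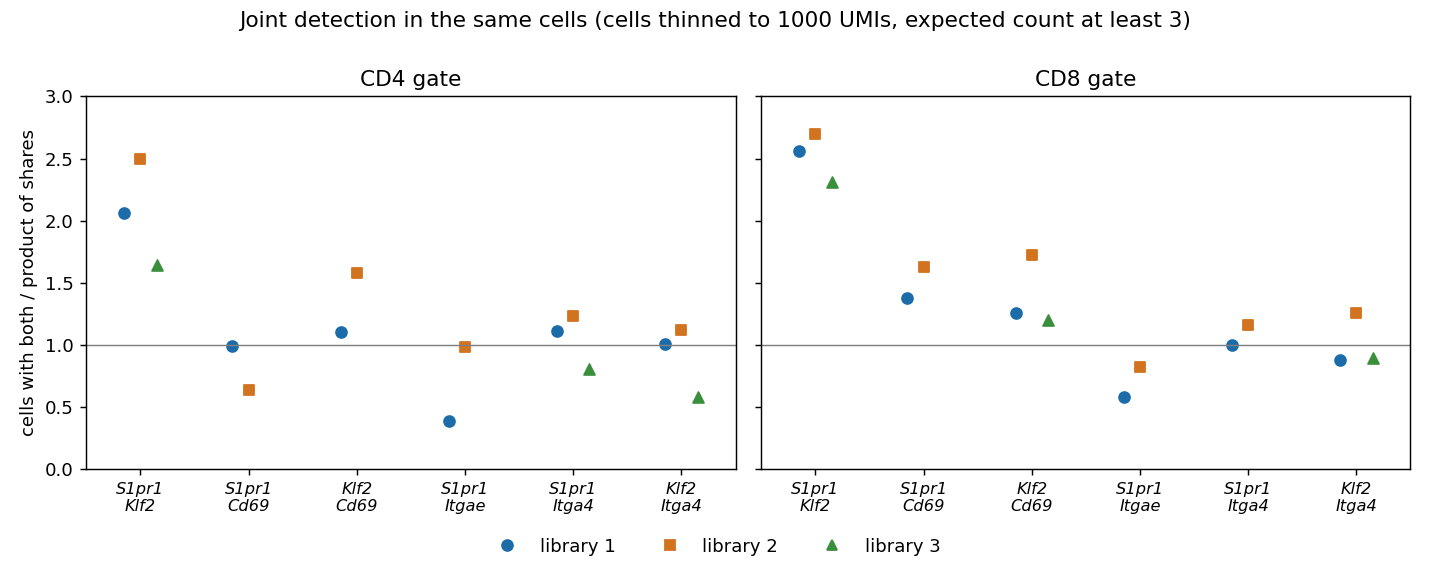
Number of thinned cells with UMIs of both genes divided by the product of the shares (vertical axis) for 6 gene pairs (horizontal axis) in CD4 and CD8 cells, with 1 symbol per library and points shown where at least 3 cells were expected; the grey line marks a ratio of 1. S1pr1 with Klf2 lay between 1.64 and 2.7, above the other pairs of the same library and gate.

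Across the 21 sums of library and gate, which share libraries and depth, the log2 levels of S1pr1 correlated with those of Itga4 (Pearson r = 0.782), Cd69 (0.765) and Klf2 (0.6), and inversely with Itga1 (-0.776). Klf2 was inverse to Zfp683 (-0.744), Itga1 (-0.681) and Itgae (-0.612). Itgae and Itga4 were unrelated (-0.00697). The genes whose levels were most like S1pr1 were Slamf6 (0.951), Samhd1 (0.935) and BE692007 (0.924), and those most like Klf2 were Ripor2 (0.852), Rasgrp2 (0.841) and Fgfr1op (0.813). Cd69 was matched by Gmds (0.941), Bckdk (0.94) and Adar (0.937), and Itgae, less closely, by Igflr1 (0.821), Yipf1 (0.791) and Glrx (0.78). The NK receptor genes Klre1 (0.967) and Klrk1 (0.949) and the signalling gene Chn2 (0.955) followed Itga1 most closely. Zfp683 was followed by Ostf1 (0.854), Sh3bgrl3 (0.843) and Mrpl58 (0.84), and Itga4 by Ccnd2 (0.86), Sh3kbp1 (0.846) and 1700019D03Rik (0.833). Correlations here describe the 21 sums and carry no test. The sums include the 14 NK cells of library 3, where S1pr1 and Cd69 both had 0 UMIs. Such a point can raise a correlation, and values without it were not computed.

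The enzymes and carriers that make, break down and export sphingosine-1-phosphate were little seen in these leukocytes. Their 8 genes summed to 19.9 to 97.9 CPM over the 21 sums, and 3 passed the low-count filter. None of the 3 was called by edgeR in any of the 6 comparisons between gates (0 at an unadjusted p under 0.05 and 0 by DESeq2).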

How the data were processed

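Single-cell RNA sequencing of CD45+ sciatic nerve cells was deposited by the authors as raw UMI counts per gene and cell, 1 matrix per library, made from 10x 5′ libraries against mm10 by Cell Ranger 5.0.1 (library 1) or 6.1.2 (the others). Library 1 came without a gene list here and took the row order of the others (Spearman rho of row totals 0.9501 and 0.9287, and 0.3619 and 0.3211 when shifted by 1 row). Totals were 22983991, 55120460 and 3399733 UMIs. Cells with under 300 UMIs, over 5000 genes or over 20% mitochondrial UMIs were removed, which left 3848, 8256 and 1533 cells. Doublets were kept in the main analysis, since Scrublet (scanpy 1.11.5) marked only 0, 0 and 8 cells, and the 118, 545 and 19 highest-scoring cells were removed in an alternative. UMIs were summed per library and gate (at least 10 cells) and compared in edgeR 4.0.16 by its quasi-likelihood test (TMM, filterByExpr, library as a block, Benjamini-Hochberg adjustment over all genes tested, call at an adjusted p under 0.05). The library was a block because gates of 1 library came from the same mice. Splits by Cxcr6 or Cd69 used cells thinned to 1000 UMIs, and the gene that made a split was not tested in it. On simulated counts for CD8 against CD4, 73% of genes changed by a log2 of 1 and 98% of those changed by 2 were recovered among 9021 genes. In the splits of CD4 cells 29% and 87% (Cd69, 4037 genes) and 43% and 84% (Cxcr6, 3959 genes) were recovered, so changes of a log2 of 1 were often missed there. The genes were given by name, and with them the gene lists were chosen with earlier results of these data known. All 8 genes are named; of a list, up to 4 called genes by size, except 1 gene that is not reported here. Shares had exact Clopper-Pearson intervals computed, which cover counting error only. Alternatives were DESeq2 1.42.0, no low-count filter, no block, each library left out, other gate rules, doublets left out and other thinning. P values do not measure the spread of levels between libraries, which the block takes up. They rest on the spread left after it, pooled over the sums of a fit and moderated across genes by edgeR. The residual degrees of freedom were 12 between gates, 5 for the Cd69 splits and 6 for the Cxcr6 splits, so very small p values lean on that sharing.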

Additional observations from a re-analysis of the deposited data

How the results depend on the processing

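Of the 34 calls of single genes, all 34 held with the highest-scoring doublets left out and with 1 Cd3 UMI in place of 2, and 31 held with DESeq2, which lost 2 and gave no adjusted p for S1pr1 by Cxcr6 in CD4 cells. The paired design mattered most: without the library block 13 held and 21 were lost, and the numbers of genes called fell to 196 (CD8 against CD4, from 783), 49 (Foxp3), 403 (NK), 216 (gamma delta), 190 (Ly49 T), 1942 (B), 1 and 1 (Cd69 in CD4 and CD8 cells), 2 and 1 (Cxcr6) and 0 and 0 (the interactions). No call of a gene among the 8 turned its direction in any setting.

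Leaving out 1 library at a time gave 281 to 719 genes for CD8 against CD4, 160 to 266 for Foxp3, 385 to 738 for NK, 259 to 479 for gamma delta, 259 to 456 for Ly49 T and 1783 to 3592 for B cells. By Cd69 it gave 2 to 18 in CD4 and 4 to 35 in CD8 cells, by Cxcr6 8 to 68 and 25 to 130, and 0 to 1 and 0 to 3 for the Cd69 and Cxcr6 interactions. The macrophage limit, when removed, left 168 genes for Foxp3 and 391 for Ly49 T, and stricter markers left 306 for gamma delta. By Cd69, CD4 cells had 6 genes called with DESeq2, 8 with stricter markers and 143 without thinning, and CD8 cells 13 with DESeq2, 11 when thinned to 500 and 89 without thinning. By Cxcr6, CD4 cells had 26 when thinned to 500 and 210 without thinning, and CD8 cells 70 without the low-count filter and 618 without thinning. The Cd69 interaction, 5 genes in the main analysis, gave 0 with DESeq2, stricter markers or thinning to 500, 1 without the filter, 3 without doublets and 2 without thinning. The Cxcr6 interaction, 2 genes, gave 1 without the filter, with 1 Cd3 UMI or thinned to 500, 5 with stricter markers and 63 without thinning. Causes were not tested.

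Differences that had not passed and changed sign are given here with their range when 1 library was left out. Cd69 ran from -0.64 to 0.00 in CD8 against CD4 and from -0.50 to 0.14 in Foxp3 against CD4, Itgae from -0.35 to 0.77 in CD8 against CD4, and Itga1 from -0.03 to 0.02 in Foxp3 against CD4. By Cd69, S1pr1 in CD4 cells ran from -0.68 to 0.48 and Itga4 in CD8 cells from -0.04 to 0.27. By Cxcr6, Itgae ran from -0.43 to 1.26 in CD4 and from -0.70 to 1.62 in CD8 cells, and Itga4 from -0.10 to 0.17 and from -0.40 to 0.47. Under other settings, Klf2 in CD8 against CD4 was 0.02 with stricter markers, and Itga1 in Foxp3 against CD4 was 0.01 with DESeq2 and without the block, 0.00 without the filter and with 1 Cd3 UMI, 0.08 without the macrophage limit and 0.28 with stricter markers. By Cd69 in CD4 cells, Itga4 was 0.18 without the block, Itgae 0.39 when thinned to 500 and S1pr1 -0.11 when thinned to 500 and -0.32 without thinning, and in CD8 cells Itga4 was -0.17 without thinning and S1pr1 0.00 when thinned to 500. By Cxcr6, Itga4 in CD4 cells was 0.08 with DESeq2, 0.11 without the block, 0.26 when thinned to 500 and 0.14 without thinning, and in CD8 cells -0.20 without thinning.

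The shares of cells with a UMI moved with depth. Thinned to 500 UMIs they were 12.1% for S1pr1 in CD4, 21.7% for Klf2 in B, 9.63% for Itgae in Foxp3 and 18.5% for Itga4 in CD4 cells, and without thinning 31.3%, 53.2%, 33.3% and 52.2%, with 3.62% for S1pr5 in NK, 52.1% for Cd69 in B, 39.5% for Itga1 and 7.46% for Zfp683 in Ly49 T cells.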
